A study of Sus scrofa with 6 samples.

Results

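A set of 9 leukocyte signalling and surface genes was followed in abdominal aorta of swine: PTPRC, PTPN6, LYN, FGR, INPP5D, CSK, LAPTM5, CD53 and CD48. They were chosen by symbol, with earlier results of these data known. All 9 were found in the gene table, 1 entry each, among 22861 genes. All 9 also passed the filter on low counts that left 11673 genes for testing. The series holds 6 pools of total RNA from abdominal aorta. The lesion group is labelled WMS FH and had atherosclerotic lesions, and its 11 animals gave 3 pools (replicates 1, 2 and 3). The lesion-free group is labelled WMS normal, and its 11 animals gave the other 3 pools (replicates 4, 5 and 6). The labels do not spell out WMS or FH, and they state neither alleles, sex, age and diet nor which animals made up a pool. Line and lesion status went together in every pool, so their effects cannot be told apart. The pool is the replicate throughout, and p-values judge a group difference against the spread between pools. Variation between the animals within a pool is not measured.

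These genes belong to the phosphorylation switch of blood-derived cells. Src family kinases such as LYN and FGR start signalling from immune receptors, and CSK silences them by phosphorylating a tyrosine in their tails. PTPRC, the receptor phosphatase CD45 of all nucleated blood cells, removes that phosphate and so primes the kinases. PTPN6, the phosphatase SHP-1, and INPP5D, the lipid phosphatase SHIP1, are recruited to inhibitory receptors and damp the signal, PTPN6 on proteins and INPP5D on the lipid product of PI 3-kinase. LAPTM5 is a lysosomal membrane protein that lowers the surface amount of antigen receptors, CD53 is a tetraspanin that organises membrane proteins of leukocytes, and CD48 is a lipid-anchored adhesion molecule of the SLAM family. CSK is made in nearly all cells, whereas the other 8 genes are best known from blood-derived cells.

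Lesion replicate 1 had 4650176 counts in all, and the other pools had 8492673 to 11442433. Lesion replicate 1 stood apart: it had a count for 10754 genes against 11834 to 13502 in the other pools, and its log2 levels correlated across genes at 0.792 and 0.794 with the other lesion pools, where the other pairs of pools within a group correlated at 0.826 to 0.912. Genes are not independent replicates in such a correlation. Fits without this pool are given beside the results it moved. Levels below are in CPM, the count relative to a library size adjusted by trimmed-mean (TMM) scaling. Counting error is smallest for the deepest pools, and 3 counts, the least taken as detection, equal 0.576 CPM in lesion replicate 1 and 0.268 to 0.359 CPM elsewhere. No member fell below that level in any pool. Gene lengths are not used here, so levels are compared between pools, and a gene named from a list for its CPM is not thereby ranked against others per length.

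PTPN6, LAPTM5 and CD53 were higher in lesion pools, by 5.39, 7.83 and 7.61 times, and 0 members were lower. PTPRC, LYN, FGR and CD48 also had every lesion pool above every lesion-free pool, without passing the threshold of an adjusted p of 0.05 in limma, beyond which a gene is called. INPP5D and CSK overlapped between the groups. So 3 of the 9 were called higher, where 0.968% of all genes tested were, and 0 were called lower, where 0.0771% of all genes were. Before adjustment 7 members had a p under 0.05, all higher, against 10.6% of all genes in either direction. In 7 of 9 every lesion pool exceeded every lesion-free pool, against 10.4% of all genes tested. The median log2 fold was 2.58 over the members and -0.003 over all genes tested. Because the members were chosen with earlier results of these data known, these contrasts with all genes are descriptions, not independent support. In bulk tissue, more cells of a type and more RNA per cell cannot be told apart.

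**Figure D1:**
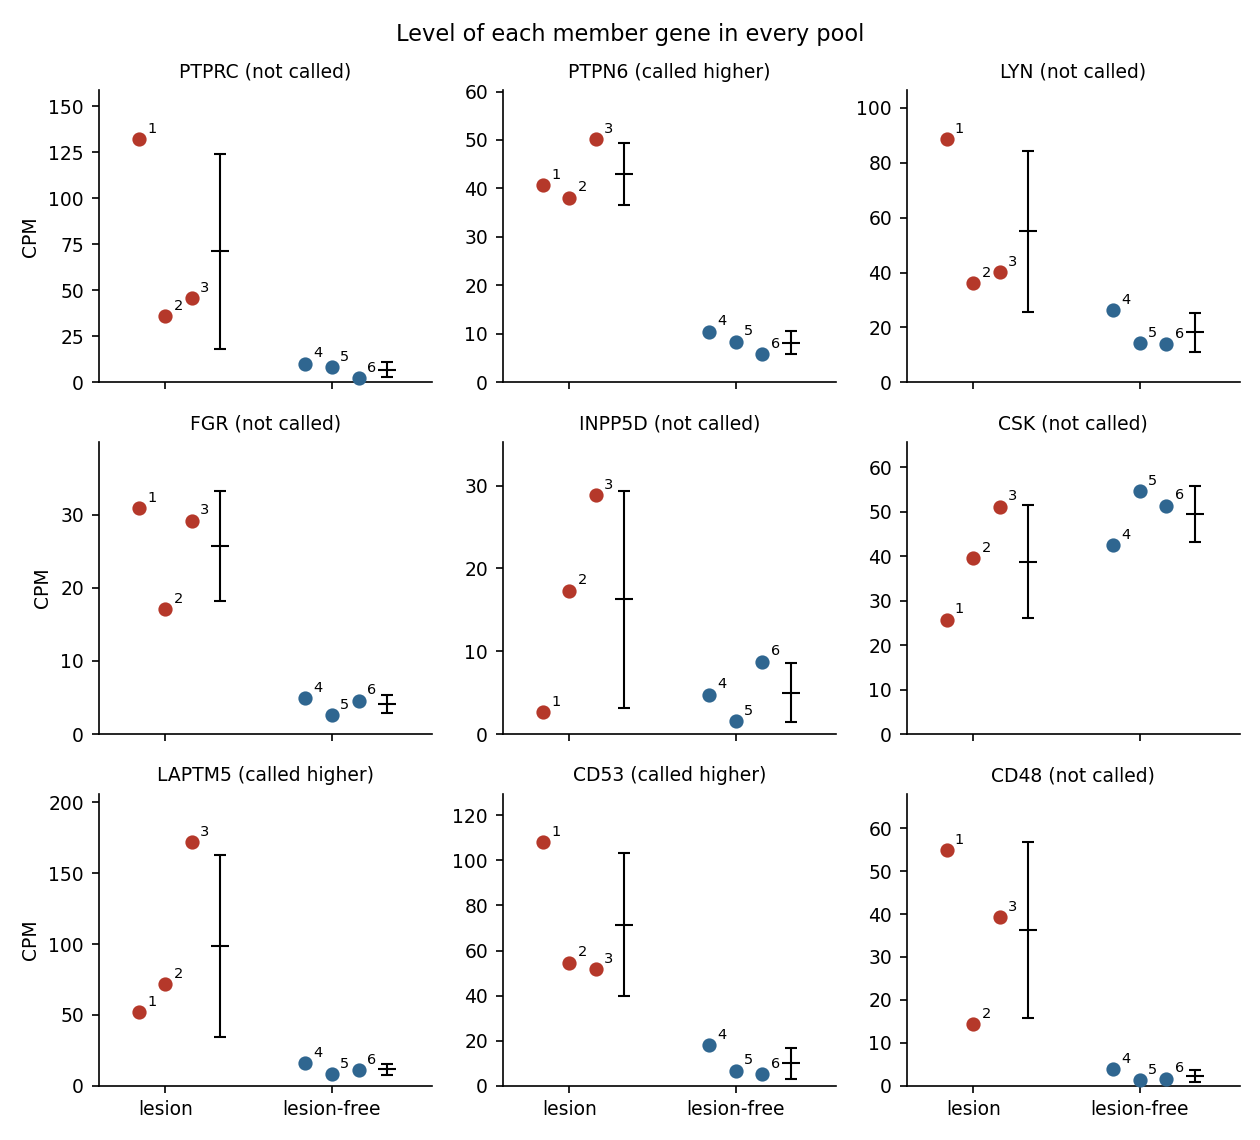
CPM (vertical axis, linear from 0) of each member gene in the lesion pools (red) and the lesion-free pools (blue), with the replicate number beside each point and the mean ± SD of 3 pools as a bar. The groups are separate for all genes but INPP5D and CSK, and lesion replicate 1 is the highest pool for 5 members and the lowest lesion pool for 3.

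The receptor phosphatase PTPRC stood at 132, 36.0 and 45.9 CPM in lesion replicates 1, 2 and 3 and at 10.1, 8.15 and 2.24 CPM in lesion-free replicates 4, 5 and 6. All lesion pools were above all lesion-free pools, and lesion replicate 1 was far above the rest. The means were 71.4 ± 52.9 and 6.84 ± 4.11 CPM (SD, n = 3 each), and the fitted log2 fold was 3.34 (SE 0.74, 95% interval 1.74 to 4.95, limma adjusted p = 0.056). The gene sat just outside the threshold, and the outcome moved with single pools. Without lesion replicate 1 the log2 fold was 2.87 and the call was made (limma adjusted p = 0.0209), as it was without lesion replicate 2 (limma adjusted p = 0.0076). Without lesion-free replicate 6, which held 22 PTPRC counts, the log2 fold was 2.62 (limma adjusted p = 0.117). Over all fits that left out 1 pool, the limma adjusted p of PTPRC ranged from 0.0076 to 0.231.

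PTPN6, the phosphatase that docks on phosphorylated inhibitory receptors, was the member with the narrowest spread among lesion pools. It stood at 40.7, 38.1 and 50.2 CPM in lesion pools and at 10.5, 8.39 and 5.79 CPM in lesion-free pools. The highest lesion pool was 1.32 times the lowest. The means were 43.0 ± 6.35 and 8.21 ± 2.34 CPM (SD, n = 3 each), and PTPN6 rose 5.39-fold (log2 fold 2.43, SE 0.41, limma adjusted p = 0.00786). Without lesion replicate 1 the adjusted p in limma was 0.00858, and without lesion-free replicate 6 it was 0.0663, so that the call was lost.

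INPP5D, the other brake on signalling, stood at 2.69, 17.3 and 28.8 CPM in lesion pools and at 4.74, 1.56 and 8.74 CPM in lesion-free pools. Lesion replicates 2 and 3 were above all lesion-free pools, while lesion replicate 1, with 14 counts, lay below replicates 4 and 6. The log2 fold was 1.76 (SE 0.95, 95% interval -0.29 to 3.81, limma adjusted p = 0.54), and without lesion replicate 1 it was 2.37 (limma adjusted p = 0.128). INPP5D was thus not called with or without that pool. Without it the log2 fold of PTPN6 was 2.46, and the difference between these genes was not tested.

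Of the Src family kinases, LYN works in both activating and inhibitory signalling of myeloid and B cells. It stood at 88.6, 36.0 and 40.2 CPM in lesion pools and at 26.4, 14.3 and 13.9 CPM in lesion-free pools. The groups did not overlap, but lesion replicate 2 and lesion-free replicate 4 were close. The log2 fold was 1.45 (SE 0.42, 95% interval 0.57 to 2.34, limma adjusted p = 0.153), and without lesion replicate 1 it was 1.13 (limma adjusted p = 0.226). FGR, a Src kinase of myeloid cells, stood at 30.9, 17.1 and 29.2 CPM against 4.96, 2.64 and 4.57 CPM. Its groups lay well apart, with a log2 fold of 2.58 (SE 0.62, 95% interval 1.25 to 3.91, limma adjusted p = 0.0711). Without lesion replicate 2, its lowest lesion pool, FGR was called (limma adjusted p = 0.0254). Leaving out each pool in turn gave FGR a limma adjusted p of up to 0.291.

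CSK, the kinase that silences the Src family, was the single member with a log2 fold below 0. It stood at 25.8, 39.5 and 51.2 CPM in lesion pools and at 42.5, 54.8 and 51.4 CPM in lesion-free pools. The groups overlapped, and lesion replicate 1 was the lowest of all pools. The log2 fold was -0.34 (SE 0.32, 95% interval -1.01 to 0.34, limma adjusted p = 0.737), and without lesion replicate 1 it was -0.13. Its interval lay below the fitted log2 folds of all other members, but it overlapped the interval of INPP5D, -0.29 to 3.81. No difference in fold between CSK and another member was tested in this fit.

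Among the surface and lysosomal genes, LAPTM5 stood at 52.1, 71.8 and 172 CPM in lesion pools and at 15.7, 8.39 and 10.8 CPM in lesion-free pools. Its highest pool was lesion replicate 3. It rose 7.83-fold (log2 fold 2.97, SE 0.52, limma adjusted p = 0.0114), but leaving out lesion-free replicate 4 ended the call (limma adjusted p = 0.0533). CD53 stood at 108, 54.6 and 51.8 CPM against 17.9, 6.71 and 5.08 CPM, so that its highest pool was lesion replicate 1. It rose 7.61-fold (log2 fold 2.93, SE 0.51, limma adjusted p = 0.00902), and it was called whichever pool was left out, with a limma adjusted p of at most 0.0436.

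CD48, the ligand of CD2 and CD244, had the largest fitted fold of the members and the widest interval. It stood at 55.0, 14.3 and 39.3 CPM in lesion pools and at 3.77, 1.32 and 1.63 CPM in lesion-free pools, the latter from 35, 11 and 16 counts. Even the lowest lesion pool was above all lesion-free pools, and the lesion pools spread over 3.85 times. The log2 fold was 3.81 (SE 1.09, 95% interval 1.46 to 6.16, limma adjusted p = 0.164), and without lesion replicate 2, the lowest lesion pool, it was 4.44 and called (limma adjusted p = 0.00896). Leaving out each pool in turn gave CD48 a limma adjusted p of up to 0.452.

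**Figure D2:**
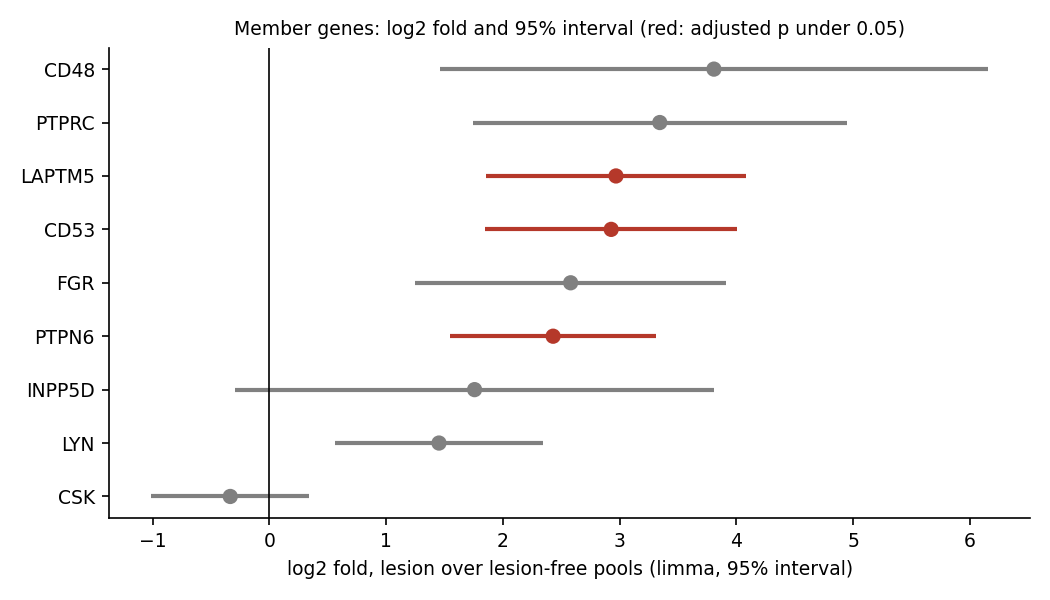
Fitted log2 fold of lesion over lesion-free pools (horizontal axis) for each member gene, with its 95% interval as a line. Red marks PTPN6, LAPTM5 and CD53, which were called, and the intervals of INPP5D and CSK cross 0.

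The lesion pools did not rank the members alike. Lesion replicate 1 was the highest lesion pool for PTPRC, LYN, FGR, CD53 and CD48, and the lowest for INPP5D, CSK and LAPTM5. Lesion replicate 3 was the highest for the other 4 members, and lesion replicate 2 for 0. Against the lesion-free mean, lesion replicate 1 was at 19.3 times for PTPRC and 24.5 times for CD48, but at 0.537 times for INPP5D. In lesion replicates 2 and 3 PTPRC was at 5.26 and 6.71 times and INPP5D at 3.45 and 5.75 times, so the 2 genes lay closer together there.

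**Figure D3:**
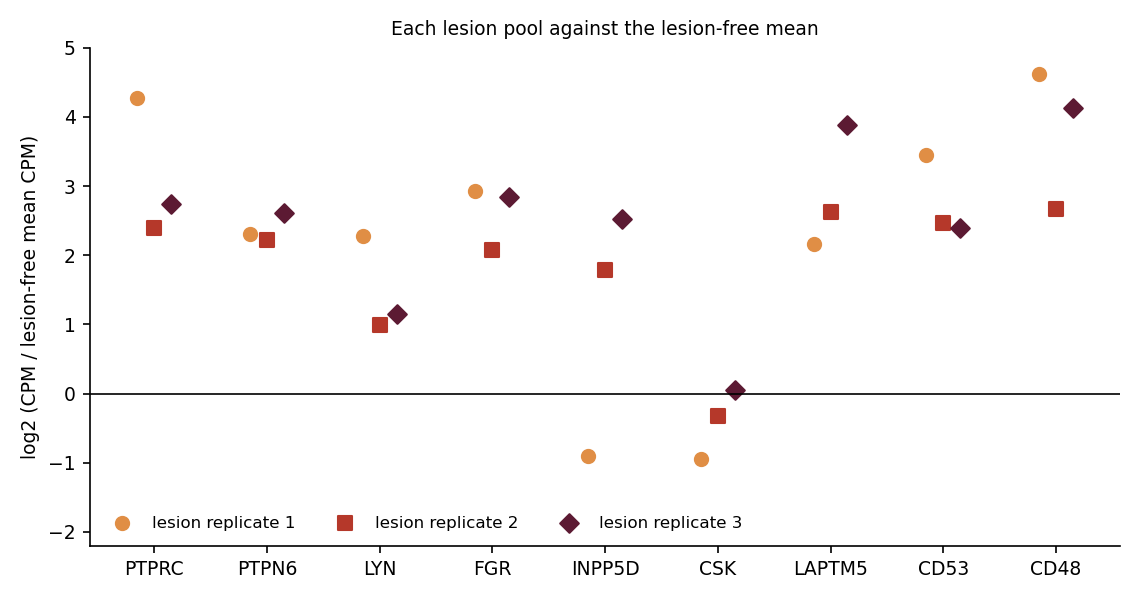
Log2 of the CPM of each lesion pool over the mean CPM of the lesion-free pools (vertical axis) for each member gene, with a symbol per lesion replicate. Lesion replicate 1 is highest for PTPRC and CD48 and lies below 0 for INPP5D and CSK.

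Likeness between profiles was taken as the root mean square difference, over the 6 pools, between log2 levels centred on each gene's own mean, so that 0 means the same course across pools. It takes in the group difference and the differences among pools alike, and is a description. The closest pair of members was PTPN6 and FGR, at 0.45, followed by PTPRC and CD53, at 0.55. CSK and CD48 were farthest apart, at 2.35, and PTPRC and INPP5D were at 2.24. In a comparison without lesion replicate 1, chosen after seeing the data, PTPRC and INPP5D were at 1.41, PTPN6 and FGR at 0.43 and CSK and CD48 at 1.92, and LAPTM5 and CD48 were the closest pair, at 0.26 in place of 0.94. The nearest genes below were taken over all 6 pools only. Among 8878 other tested genes with a symbol and an average log2 level of 1 or more, the 5 nearest to PTPRC were GNA15 at 0.47, CLECL1 at 0.50, CALCR at 0.50, ABRACL at 0.52 and SRGN at 0.55, where the median gene was at 1.98. SRGN is the proteoglycan serglycin of leukocyte granules, GNA15 a G protein alpha subunit of blood cells and CALCR the calcitonin receptor. The gene nearest to CD53 was also GNA15, at 0.18.

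The nearest gene to PTPN6 was DMB, a peptide loader of MHC class II, at 0.20, and the nearest to FGR was GM2A, a lysosomal activator of ganglioside breakdown, at 0.13. The nearest to LAPTM5 was HMHA1, at 0.38, and the nearest to CD48 was LGALS3, a galectin abundant in macrophages, at 0.35. LYN was nearest to MFSD3, at 0.16, and INPP5D to ZNF605, at 0.45. CSK was nearest to SOD3, the extracellular superoxide dismutase, at 0.066, where the median gene was at 0.58 from CSK. SOD3 was itself not called (limma adjusted p = 0.632).

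Ratios of a member's count to the PTPRC count within a pool do not depend on how libraries are scaled. The ratio of CSK to PTPRC was 0.195, 1.10 and 1.12 in lesion pools and 4.17, 6.68 and 22.5 in lesion-free pools, and the groups did not overlap. On the log2 scale the lesion mean was lower by 3.79 (the value is -3.79, exact permutation test over the pools, two-sided p = 0.1, adjusted p = 0.4 over 8 ratios). The ratio of LYN to PTPRC was 0.670, 1.00 and 0.877 against 2.60, 1.74 and 6.11, also without overlap, with a log2 difference of -1.85 (exact permutation p = 0.1, adjusted p = 0.4). With 3 pools against 3 the smallest p this test allows is 0.1, so no ratio could pass. Without lesion replicate 1 the log2 differences were -2.95 for CSK and -1.69 for LYN.

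The other 6 ratios overlapped between the groups, with exact permutation p from 0.4 to 0.8. LAPTM5 and CD53 differed from PTPRC by -0.45 and -0.41 on the log2 scale, and CD48 by 0.54. LAPTM5, FGR and CD48 had no firm direction when single pools were left out. LAPTM5 was at 0.48 without lesion replicate 1 and at 0.18 without lesion-free replicate 6. FGR was at 0.04 in place of -0.73 without replicate 6, and CD48 was at -0.01 without lesion-free replicate 5. CD53 stayed below 0 whichever pool was left out, from -0.83 to -0.11, and was at -0.18 without lesion replicate 1. The ratio of PTPN6 was 0.309 in lesion replicate 1 and 1.06 and 1.09 in lesion replicates 2 and 3, against 1.03 to 2.56 in lesion-free pools, and its log2 difference of -0.97 was -0.37 without lesion replicate 1. The ratio of INPP5D was 0.0211 in lesion replicate 1 and 0.482 and 0.629 in the other lesion pools. Without lesion replicate 1 the log2 difference of INPP5D was -0.37 in place of -1.94, and without lesion-free replicate 6 it was -0.72.

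**Figure D4:**
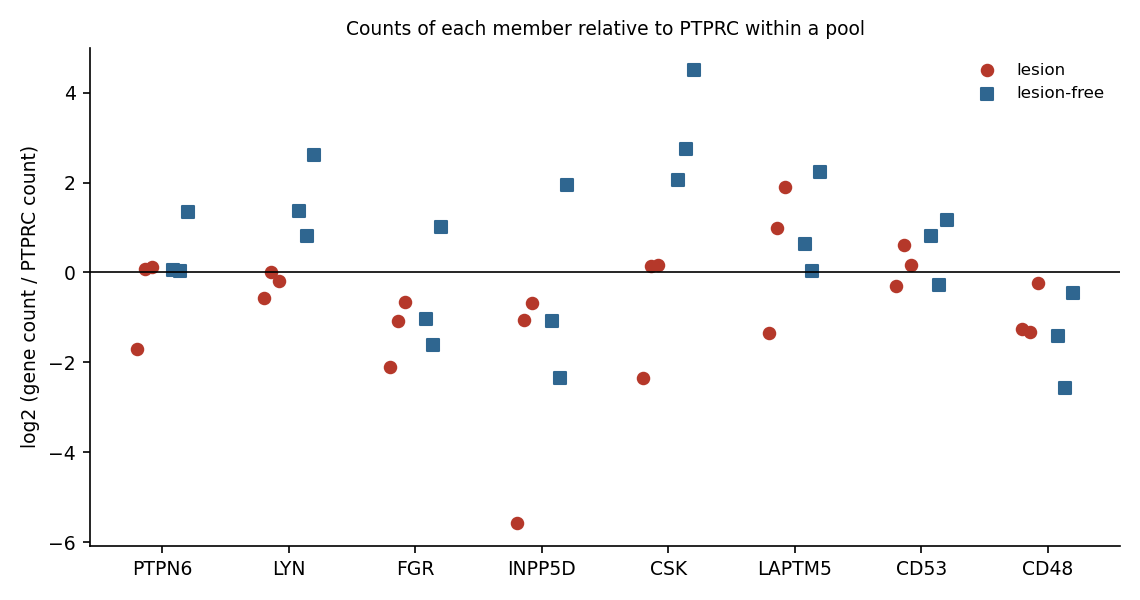
Log2 of a member's count over the PTPRC count (vertical axis) in each lesion pool (red circles) and lesion-free pool (blue squares). The groups are separate for LYN and CSK, and the lowest lesion point of INPP5D is lesion replicate 1.

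At the level of isoforms, 17 could be tied to the members by name and counts, 10 of them were tested, and 1 was called, PTPN6-201, the single isoform listed for that gene (log2 fold 2.44, SE 0.41, limma adjusted p = 0.035). Among all 12666 isoforms tested 0.418% were called higher. Leaving out lesion replicate 3, or any one of the lesion-free pools, ended that call. LAPTM5-201, which holds all counts of its gene, had a limma adjusted p of 0.0671 there and was called without lesion replicate 1. The name LYN-201 was carried by 6 isoforms, and only that with exactly the counts of the gene LYN was taken as LYN. Another 2 had exactly the counts of TGS1 and TMEM68, which are other genes.

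PTPRC had counts on 2 of its 3 listed isoforms. PTPRC-001 took 100% of the gene's counts in lesion replicate 1, 54.1% and 61.2% in lesion replicates 2 and 3, and 100%, 86.8% and 63.6% in lesion-free replicates 4, 5 and 6. PTPRC-201 took the rest: 45.9% in lesion replicate 2 (exact Clopper-Pearson 95% interval 41.0 to 50.9), 38.8% in lesion replicate 3 (34.5 to 43.2), 13.2% in lesion-free replicate 5 (6.23 to 23.6) and 36.4% in lesion-free replicate 6 (17.2 to 59.3). It was listed at 0 of 688 counts in lesion replicate 1, which allows up to 0.436%, and at 0 of 94 in lesion-free replicate 4, which allows up to 3.19%, both limits being 3 counts of the total. The upper exact Clopper-Pearson bounds of these zeros were 0.535% and 3.85%. Both groups thus held pools with and without it. These bounds cover counting error only, not the error of sharing reads among isoforms.

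CD53 counts lay on CD53-001 at 100%, 86.8% and 100% in lesion pools and at 83.7% and 0% in lesion-free replicates 4 and 5, and 15 of 50 counts in replicate 6 lay on it. In lesion-free replicate 5 all 56 counts lay on CD53-002, which was at 0 in every lesion pool. CD53-001 had a log2 fold of 5.67 (SE 1.64, limma adjusted p = 0.3), against 2.93 for the whole gene. In lesion-free replicates 5 and 6 most counts of the gene lay on isoforms other than CD53-001.

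Relatives and partners were taken from 9 lists of 160 symbols, of which 125 were found and 104 tested. In all, 4 genes of these lists were called higher and 0 lower, where 0.968% and 0.0771% of all genes tested were. These lists and the cell type lists below were also chosen with earlier results known, so their shares are descriptions too. Of these 4, 3 act downstream of Src kinases in leukocytes. HCLS1, a cytoskeletal substrate of LYN, stood at 93.4, 63.5 and 91.8 CPM in lesion pools and 16.8, 11.9 and 7.72 CPM in lesion-free pools. It rose 7.02-fold (log2 fold 2.81, SE 0.39, limma adjusted p = 0.00155). LAT2, a membrane adaptor phosphorylated on receptor triggering, stood at 83.8, 94.7 and 121 CPM against 13.9, 1.32 and 7.52 CPM and rose 17.7-fold (limma adjusted p = 0.00323). PIK3AP1, an adaptor that recruits PI 3-kinase, stood at 94.4, 48.5 and 60.2 CPM against 9.60, 15.8 and 8.03 CPM and rose 5.97-fold (limma adjusted p = 0.00485). These 3 were called whichever pool was left out.

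Of the 29 tested kinases and adaptors after Src kinases, these 3 were higher, 0 were lower and 26 were not called. In 17 of the 29 every lesion pool was above every lesion-free pool, against 10.4% of all genes. The same number had p under 0.05 before adjustment, against 10.6% of all genes in either direction. The list median log2 fold was 1.84, beside -0.003 for all genes tested. PIK3R1, the regulatory subunit of PI 3-kinase, named for its mean CPM, had a log2 fold of -0.35 (SE 0.42, limma adjusted p = 0.801). The gene table holds PIK3R1 at 2 entries, and the value is that of the entry with the higher mean level. The log2 folds of the list ranged from -0.50 to 5.07.

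Other Src family kinases were thinly covered. SRC, the widely made founder of the family, stood at 10.6, 22.5 and 28.8 CPM in lesion pools against 19.8, 33.5 and 37.2 CPM in lesion-free pools, and FYN, also widely made, at 13.6, 21.3 and 28.6 against 26.1, 17.1 and 16.1 CPM. Both overlapped, with log2 folds of -0.49 and 0.15, and lesion replicate 1 was their lowest pool. LCK, the kinase of T cells, had 0, 8 and 14 counts against 12, 4 and 4, BLK, a kinase of B cells, had 15, 3 and 0 against 0 in each lesion-free pool, FRK was at 0 throughout, and YES1 was not matched by symbol. None of the 3 tested genes of this list was called by limma, and 1 had p under 0.05 before adjustment, against 10.6% of all genes.

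Genes that set Src kinase activity beside CSK and PTPRC were not called in limma in any of 10 tested. Before adjustment 3 of them had p under 0.05, all higher, against 10.6% of all genes in either direction. CBL, 1 of these 3, is also in the list of kinases and adaptors after Src kinases. PTPRJ, a receptor phosphatase that also acts on Src kinases, named for its mean CPM, stood at 78.8, 89.1 and 102 CPM against 47.2, 70.4 and 66.3 CPM. Its groups were just apart (log2 fold 0.58, SE 0.28, limma adjusted p = 0.479). The list median log2 fold was 0.20, and without lesion replicate 1 it was 0.79. The symbol SLA in this list was at 2 entries, and that with the higher mean level, at a log2 fold of 0.37, was taken. Which gene that entry is was not checked, and the list median rests in part on it. Among 17 other tyrosine phosphatases 1 was called, UBASH3B, which acts on the kinase SYK and its relatives. It stood at 37.9, 30.1 and 25.8 CPM against 6.69, 6.95 and 4.47 CPM and rose 5.11-fold (log2 fold 2.35, SE 0.47, limma adjusted p = 0.0223). Leaving out replicate 4, 5 or 6 of the lesion-free group ended the call (limma adjusted p = 0.0533, 0.0927 and 0.144).

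PTPN11, the widely made sister of PTPN6, had means of 258 ± 30.3 and 263 ± 62.6 CPM in the lesion and lesion-free groups (SD over 3 pools). Its log2 fold was -0.002 (SE 0.27, limma adjusted p = 0.998), beside 2.43 for PTPN6. Among 12 phosphoinositide phosphatases related to INPP5D 0 were called in limma and 0 had p under 0.05 before adjustment, with a median of -0.11. INPP5A, a phosphatase of soluble inositol phosphates named for its mean CPM, had a log2 fold of -0.49 (limma adjusted p = 0.525). Of 22 inhibitory receptors listed only 8 were matched and 4 tested. None of the 4 was called in limma, and 2 had p under 0.05 before adjustment, against 10.6% of all genes in either direction. PECAM1, an endothelial and leukocyte receptor, had a lesion mean of 292 ± 37.2 and a lesion-free mean of 171 ± 16.3 CPM (SD over 3 pools), with a limma adjusted p of 0.235.

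The relatives of the 3 surface and lysosomal members gave no called gene, except that SLAMF6 and SLAMF8 were called when no filter on low counts was used. Among 7 tested genes of the SLAM family and its partners 4 had every lesion pool above every lesion-free pool, and the same number had p under 0.05 before adjustment in limma, against 10.4% and 10.6% of all genes tested. Their median log2 fold was 3.63, or 3.26 when the gene with 0 counts in every lesion-free pool is set at the bound that 3 counts per pool allow. With the stricter filter on low counts the median was 0.58, so it rests on sparsely counted genes. SLAMF1, named for its mean CPM, had means of 47.7 ± 18.5 and 46.6 ± 18.2 CPM (SD over 3 pools).

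Among 18 tetraspanins related to CD53, 0 were called in limma, and before adjustment 1 had p under 0.05 as higher and 1 as lower. The median log2 fold was 0.18, beside 2.93 for CD53. CD151, a tetraspanin of adhesion sites named for its mean CPM over all pools, had a log2 fold of -0.84 (SE 0.28, limma adjusted p = 0.259). Among 5 relatives and partners of LAPTM5, 0 were called and 0 had p under 0.05 before adjustment. LAPTM4A, a widely made relative, had a log2 fold of -0.22 (SE 0.27, limma adjusted p = 0.806), beside 2.97 for LAPTM5. Whether the folds of these relatives differ from those of the members was not tested.

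**Figure D5:**
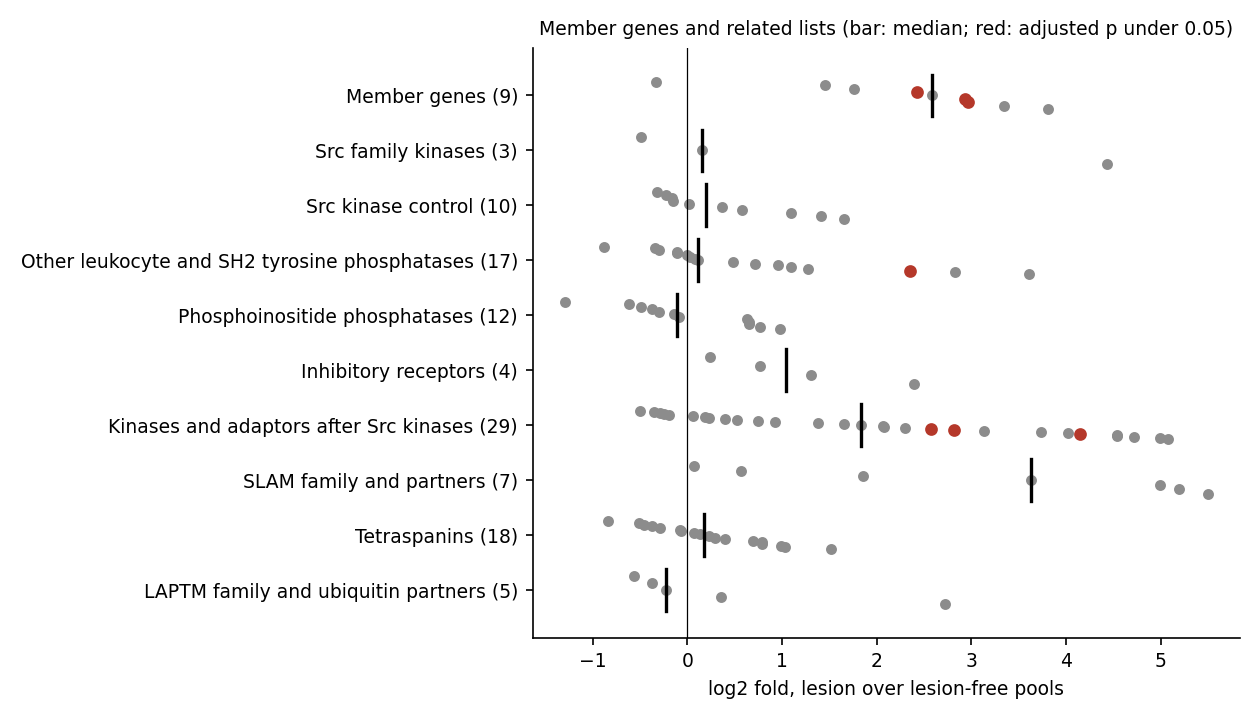
Log2 fold of lesion over lesion-free pools (horizontal axis) for the member genes and for each related list, a point per tested gene with their number in brackets. Bars mark medians and red the genes with an adjusted p under 0.05. The member median of 2.58 lies above those of all lists but the SLAM family, and lists of widely made relatives centre near 0.

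Markers of cell types were set beside these genes, and called genes were found only in the macrophage and smooth muscle lists. Of 14 macrophage markers 11 were matched and 9 tested, and 8 were called higher, where 0.968% of all genes tested were. CD14 was not called and overlapped between the groups (limma adjusted p = 0.585). CD163, at 0, 0 and 6 counts against 0, 0 and 7, and MARCO, at 0, 0 and 3 against 0, 0 and 4, were not tested. The summed level of the 11 matched was 1391 to 3132 CPM in lesion pools against 183 to 343 CPM in lesion-free pools. The macrophage markers named for their CPM in lesion pools are LYZ, at 748 ± 480 against 3.04 ± 1.75 CPM, and C1QC, at 556 ± 179 against 68.6 ± 22.0 CPM (SD over 3 pools). Of 15 T and NK cell markers 13 were matched, with a sum of 31.1 to 74.2 against 0.479 to 13.4 CPM, of which NKG7 gave 18.3 to 56.2 CPM in lesion pools, and 1 marker was at 0 throughout. None of the 5 tested was called in limma, and 1 had p under 0.05 before adjustment, against 10.6% of all genes. Of 9 B and plasma cell markers 7 were matched, with a sum of 65.8 to 115 against 80.3 to 115 CPM, of which XBP1, which many cells make, gave 61.2 to 112 and 79.2 to 107 CPM, and MS4A1 and PAX5 were at 0 in every pool. Of 10 neutrophil markers 7 were matched, none was tested, their sum was 0 to 10.9 CPM in lesion pools and 0 in all lesion-free pools, and MPO and CAMP were at 0 throughout.

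Smooth muscle markers, which define the tissue, were abundant in all pools, at a sum of 30522 to 43752 CPM in lesion pools and 69623 to 79691 CPM in lesion-free pools over 7 matched of 10. Of the 7 tested 2 were called lower, where 0.0771% of all genes tested were. Endothelial markers, 8 matched of 10, summed to 507 to 668 against 359 to 452 CPM, and adventitial fibroblast markers, 8 of 8, to 1213 to 1478 against 1403 to 2077 CPM. Mast cell markers, 3 of 6, summed to 9.03 to 24.0 against 13.9 to 34.9 CPM, and red blood cell markers, 4 of 7, to 42.7 to 214 against 88.3 to 353 CPM. In lesion replicate 1 the sum of macrophage markers was the highest and that of smooth muscle markers the lowest of all pools. The part of these shifts in the members' results was not tested.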

How the data were processed

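Total RNA of 6 pools was sequenced from stranded total RNA libraries, per the labels' protocols. The authors deposited a gene table and an isoform table of raw estimated read counts. The submitters' processing notes name RSEM 1.3.0 and edgeR without a role. The aligner is not given in the sources used here, nor is the genome build, so no coordinates or sequences are printed. RSEM splits ambiguous reads between isoforms or similar genes by a model. Digit-grouping commas were removed, after which every value was whole. Because of these commas the columns were not recorded as plain counts, and limma took the place of a count model.

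Genes with at least 1.00 CPM (10 counts in a library of median size) in 3 pools and 15 counts in all were tested with limma 3.58.1 in R 4.3.3: trimmed-mean scaling (30% of M, 5% of A), voom with 0.5 added to each count, robust empirical Bayes, two-sided p-values adjusted by Benjamini and Hochberg over all genes tested, threshold 0.05. The same was done on isoforms. The fit was tested on simulated counts, drawn with the same relative spread for every gene and no pool set apart. That test does not show how the fit handles the spread among these pools. No pool repeated another: the chi-square per degree of freedom within groups was at least 23.7. The members were followed whole. From each related list the text names up to 3 called genes by smallest p and the gene with the highest mean CPM, the Src family kinases, and up to 2 markers per cell type; PTPRC gets its 5 nearest genes, other members the nearest. Some listed genes are not reported here. Further names were chosen after their values were seen. Symbols were matched in the table, 115 of the related genes, or by identifier in a reference table, 10. Members and lists were chosen with earlier results of these data known.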

Additional observations from a re-analysis of the deposited data

How the results depend on the processing

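Alternatives were other library scalings (plain totals, median of ratios), no filter or a stricter filter on low counts, sample quality weights, limma-trend, empirical Bayes without the robust option, and leaving out each pool. The 3 members called higher became 4 without a filter or without the robust option (PTPRC added), 5 with plain totals (PTPRC and FGR added), 6 with sample quality weights (PTPRC, LYN and FGR added) and 6 with limma-trend (PTPRC, FGR and CD48 added), and ranged from 2 to 6 when a pool was left out. The 6 came without lesion replicate 2, and the 2 without lesion-free replicate 4 or 6. CD53 was called in each of these fits, and 0 members were called lower in any. The 4 related genes called higher became 7 without a filter and 7 with sample quality weights, and ranged from 3 to 5 when a pool was left out. The 1 member isoform called became 2 with plain totals, without a filter or with sample quality weights and 3 with limma-trend, and ranged from 0 to 2 when a pool was left out, with 0 in 4 of these 6 fits. Plain totals moved the median log2 fold of all genes to 0.16, and the log2 fold of CSK was then -0.16. All genes called higher numbered 113, and 54 to 213 over the alternatives, and those called lower 9, and 3 to 40. Low counts limit what can be said of LCK in every pool and of the sparsely counted genes of the SLAM family. INPP5D had only 14 counts in lesion replicate 1, at 2.69 CPM, where 3 counts equal 0.576 CPM.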
